A study of Ictalurus punctatus with 14 samples.

Results

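The change in channel catfish larvae over the 4 days between 5 and 9 days post fertilization (dpf) was measured. Attention went to genes for which neither 2-day step, from 5 to 7 or from 7 to 9 dpf, reached 2-fold. Whole larvae of 9 dpf (2 libraries) were compared with whole larvae of 5 dpf (2 libraries), out of 14 libraries at 7 stages in the series. A gene was called a DEG when edgeR's quasi-likelihood test gave an adjusted p under 0.05 and the stages differed by 2-fold or more. Of 20329 genes tested, 3021 were DEGs, and 1223 of these were gradual. This means that their fold change was under 2-fold both from 5 to 7 dpf and from 7 to 9 dpf. The class rests on these days alone and does not show a slow change on the days between. At 6 dpf, 261 of its 728 rising genes were at or above their 9 dpf level. Another 386 lay between the levels of 5 and 9 dpf and 81 at or below that of 5 dpf.

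All fish were whole-body samples of the Kansas random strain, a domesticated line of channel catfish (Ictalurus punctatus), with sex unknown. The paper mentions treatments that stopped a day before hatching was expected and does not name them. Each library came from a pool of 4 fish, and the fish of a stage were picked at random and then divided into its pools. The 9 dpf larvae had been fed since 7 dpf and the 5 dpf larvae had not, so age and feeding cannot be told apart. Ribosomal RNA was depleted before sequencing, and the values are reads per gene, given as counts scaled to the size of the library (CPM) after TMM normalization. Total counts were 4349807 and 5885954 at 5 dpf and 6755272 and 5353331 at 9 dpf, so that 3 counts corresponded to at most 0.6897 CPM in these libraries. The replicates of 9 dpf were further apart than those of 5 dpf, with 1257 against 711 genes differing by 2-fold or more between the libraries of a stage. In whole animals, fewer cells of a type and less RNA per cell cannot be told apart.

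Channel catfish hatch with a large yolk sac and live on it while the gut, sense organs, muscle and skeleton mature. In this period proliferating embryonic cells leave the cell cycle and differentiate, nerve cells form synapses and are wrapped in myelin, and the larva turns from yolk to food.

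Upregulation was the more frequent direction. In all, 2140 DEGs were higher at 9 dpf, which is 10.5% of the genes tested, and 881 were lower, which is 4.33%. The median log2 fold change of all genes was 0.02 after TMM normalization, which itself centres the fold changes near 0. A total of 49 DEGs had no count in either library of 5 dpf and 2 had none in either library of 9 dpf, and none of these was gradual. Single libraries weighed on these numbers. The 3021 DEGs became 1852 and 1677 without replicates 1 and 2 of 5 dpf, 1705 without replicate 1 of 9 dpf and 3988 without replicate 2 of 9 dpf.

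The genes that rose most did so in large steps. catl, which encodes a cathepsin L protease, was at 0 and 0.168 CPM in the libraries of 5 dpf, at 6.76 and 6.09 at 7 dpf and at 49.2 and 76.8 at 9 dpf. The log2 fold change between 5 and 9 dpf was 9.15 ± 1.53 (approximate SE; edgeR adjusted p = 0.00146). pepa rose from 0.225 and 0.672 CPM to 164 and 244 CPM. chia.1, a chitinase gene, rose from 0.451 and 0.168 CPM to 112 and 110 CPM. spp2, which encodes a secreted phosphoprotein, had 0 and 0.336 CPM at 5 dpf and 67 and 72.2 CPM at 9 dpf, coch, for the matrix protein cochlin, rose by 7.92 on the log2 scale, and tdo2b, for the tryptophan-degrading enzyme tryptophan dioxygenase, by 7.55. All 6 passed 2-fold in each of the 2-day steps, and in all 6 the libraries of 9 dpf were far above those of 7 dpf. The adjusted p of these 6 genes lay between 1.21e-07 and 0.00146.

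The genes that fell most also did so in both steps. matn3b, a matrilin of the cartilage matrix, was at 92.9 and 102 CPM at 5 dpf, 43.8 and 40.6 CPM at 7 dpf and 4.23 and 11.1 CPM at 9 dpf, a log2 fold change of -3.71 ± 0.53. jam2b, a junctional adhesion molecule, went from 14.7 and 16.8 CPM to 1.41 and 0.927 CPM, and apoea, an apolipoprotein E gene, from 270 and 266 CPM to 27.3 and 46 CPM. itln3, an intelectin gene, fell by 3.12 on the log2 scale, and nts, which encodes the gut and brain peptide neurotensin, by 3.10. A gene known only by a clone-type symbol fell by 3.42. Their adjusted p lay between 1.47e-05 and 0.00163.

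**Figure D1:**
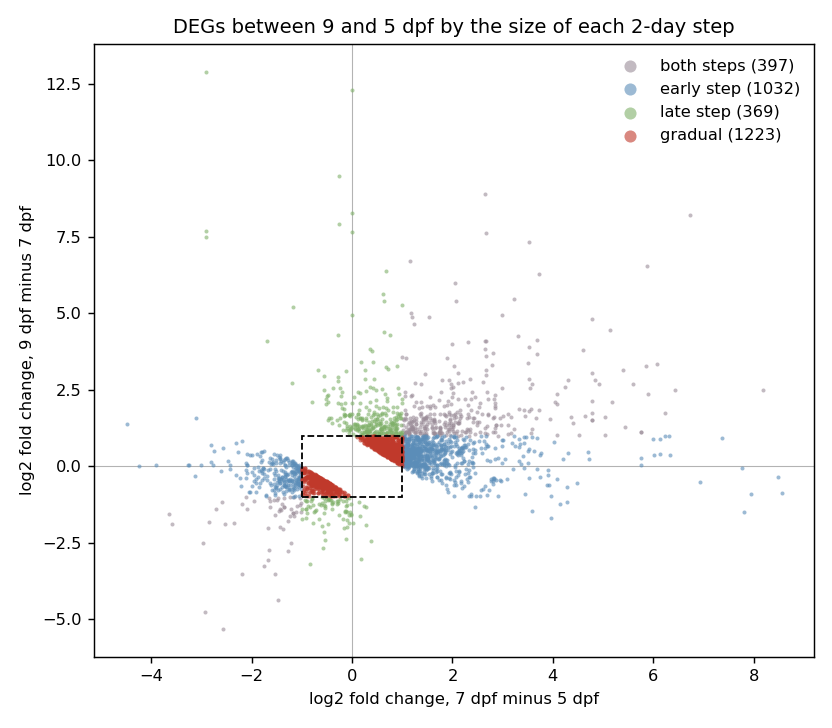
Log2 fold change from 7 to 9 dpf against that from 5 to 7 dpf for the 3021 DEGs between 9 and 5 dpf, with colours for the 4 classes and a dashed square at 2-fold. The 1223 gradual genes fill 2 corners of the square because their steps must add up to at least 2-fold, and the plot shows no test.

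Gradual genes made up a larger part of the decreases than of the increases. Of the 2140 upregulated DEGs, 728 (34%) were gradual, 781 passed 2-fold only from 5 to 7 dpf, 287 only from 7 to 9 dpf, and 344 in both steps. Of the 881 downregulated DEGs, 495 (56.2%) were gradual, 251 passed 2-fold only in the first step, 82 only in the second and 53 in both. By construction a gradual change stays under 4-fold in all, so genes of like size were set side by side. Among DEGs with an absolute log2 fold change from 1 to 1.5, 625 of 898 upregulated genes (69.6%) and 464 of 563 downregulated genes (82.4%) were gradual. From 1.5 to 2, the shares were 21.9% and 18.5%. The 2-day steps share their libraries with the comparison of 9 and 5 dpf and are a description.

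The upregulated gradual genes rose with a median log2 fold change of 1.23 in all, 0.74 from 5 to 7 dpf and 0.56 from 7 to 9 dpf. The median gene had covered 56.7% of its change by 7 dpf. Of the 728 genes, 630 had an adjusted p of 0.05 or more in both 2-day comparisons, so that they were called only over the 4 days. The downregulated gradual genes had a median of -1.14, with -0.61 and -0.57 in the steps, and 424 of 495 were called in neither step. The 1223 gradual genes became 652 and 548 without replicates 1 and 2 of 5 dpf, 456 without replicate 1 of 9 dpf and 1992 without replicate 2 of 9 dpf. With 1.5-fold as the limit of a step, 112 remained. Only DEGs little above 2-fold in all can meet that limit, so part of this drop follows from the definition.

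The genes nearest to the limit of 2-fold show how narrow it is. Just inside, adamts8a, a secreted metalloprotease, had steps of 1.0 and 0.00 on the log2 scale and asb13a.2 had steps of 1.0 and 0.46. Just outside, atic, an enzyme of purine synthesis, had steps of -1.0 and -0.07, and dhrs3a, a retinal reductase, of -0.60 and -1.0. A gene such as adamts8a therefore counts as gradual although all of its change fell in the first step.

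**Figure D2:**
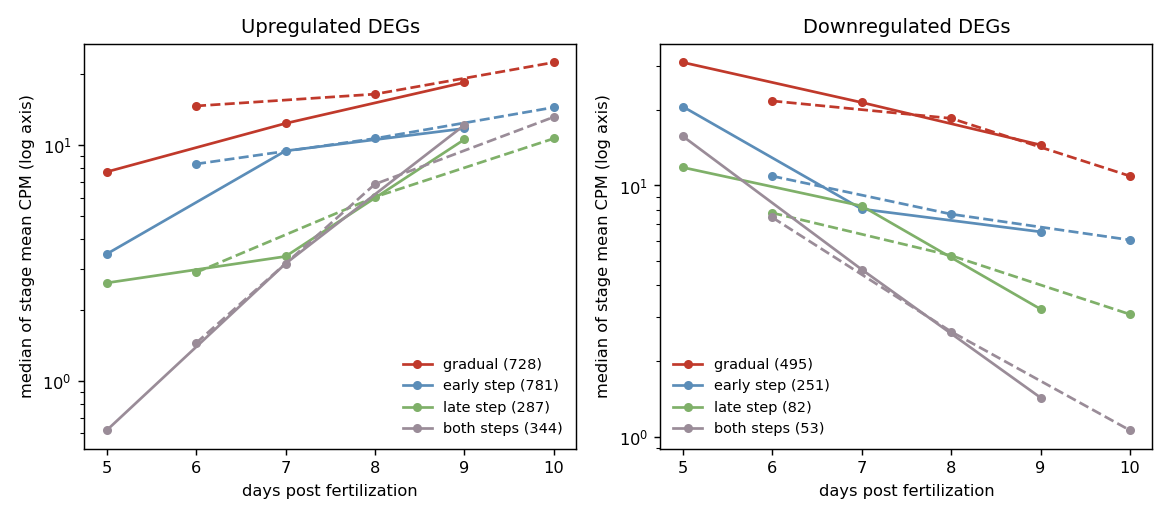
Median over genes of the stage mean in CPM, on a log axis, at each day for the 4 classes of upregulated and downregulated DEGs, with solid lines for 5, 7 and 9 dpf and dashed lines for 6, 8 and 10 dpf. The gradual genes have the highest medians, 7.72 CPM at 5 dpf and 18.5 CPM at 9 dpf when upregulated and 30.9 and 14.5 CPM when downregulated.

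Genes of cell division fell. Of 107 tested genes of DNA replication, chromosome segregation and cell cycle control, 27 fell (25.2%, against 4.33% of all genes), and 26 of the 27 were gradual. All 27 fell by between 1 and 1.5 on the log2 scale, where 82.4% of all downregulated DEGs were gradual. None rose in edgeR or in DESeq2, and 0 rose against 79 that fell at an unadjusted p under 0.05. The median log2 fold change of the list was -0.76, with -0.24 from 5 to 7 dpf and -0.46 from 7 to 9 dpf, and 6 of the 107 genes had a fold change above 0. In sum the list had 5594 and 5725 CPM at 5 dpf, 4901 and 4886 CPM at 7 dpf and 3464 and 3850 CPM at 9 dpf, so that no stage overlapped the next. The 26 gradual members were the kinase genes aurka, aurkb, cdk1, cdk2 and ttk, the cyclin genes ccnb1, ccnb2 and ccne2, and the replication genes pcna, fen1, pold3, rfc3, rfc4 and gmnn. To these came the nucleotide genes dut, tk1 and tyms, the centromere and kinetochore genes cenpk, cenpo, cenpu, cenpw, cenpx, nuf2, spc24 and mad2l1, and prc1a of the spindle midzone. They fell by between 1.01 and 1.39 on the log2 scale, with adjusted p from 0.00107 to 0.0401.

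aurkb, the Aurora kinase that corrects chromosome attachment, was at 83.6 and 81.4 CPM at 5 dpf, 51.3 and 49.5 CPM at 7 dpf and 24.8 and 38.4 CPM at 9 dpf. Its log2 fold change was -1.39 ± 0.27 (adjusted p = 0.00332), made of steps of -0.71 and -0.68. mad2l1, of the spindle checkpoint, went from 50.3 and 50.9 CPM through 35.4 and 31.8 CPM to 15.6 and 25.4 CPM. cdk2, a kinase of entry into replication, went from 30.9 and 30.2 CPM through 20.3 and 22.7 CPM to 11.1 and 15.2 CPM. Over 5, 7 and 9 dpf each stage lay below the one before it in all 3 genes. Replicate 1 of 9 dpf was the lowest of these libraries. At 6 dpf aurkb (43.6 and 42 CPM) and cdk2 (18.2 and 18 CPM) were below their level at 7 dpf, while mad2l1 overlapped it. orc2, of the origin recognition complex, was the exception to gradual change, with 16.5 and 17.3 CPM, then 15 and 12.8 CPM, then 5.5 and 6.68 CPM. The number of cell cycle genes that fell was 18 and 16 without replicates 1 and 2 of 5 dpf, 9 without replicate 1 of 9 dpf and 44 without replicate 2 of 9 dpf.

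Genes of neural progenitors and newly formed neurons fell by gradual and by early change. Of 41 tested genes, 13 fell (31.7%, against 4.33% of all genes) and 1 rose, with a median log2 fold change of -0.70. None of the 41 was called when tested against a log2 fold change of 1 (glmTreat). Of those that fell, 7 were gradual: dla and dld, which encode Delta ligands of the Notch receptors, the transcription factor genes sox3, sox11a and sox11b, the RNA-binding protein gene msi1b and the radial glia gene fabp7a. The other 6, including neurog1, dlb and nes, passed 2-fold between 5 and 7 dpf. Of the 11 genes that fell by 1 to 1.5 on the log2 scale 7 were gradual (63.6%), where 82.4% of all downregulated DEGs of that size were. The gene that rose was notch3, a Notch receptor. sox11a was at 109 and 103 CPM at 5 dpf, 54.2 and 58.7 CPM at 7 dpf and 43 and 46.2 CPM at 9 dpf, a log2 fold change of -1.24 ± 0.14 (adjusted p = 0.000141). dld went from 48 and 46.5 CPM through 21.6 and 25.7 CPM to 18.7 and 21.9 CPM, so that 7 and 9 dpf overlapped and most of the fall came first. dla went from 28.8 and 28.2 CPM through 15.2 and 17.1 CPM to 13.5 and 8.35 CPM. neurog1, a proneural transcription factor gene outside the gradual class, had 6.99 and 8.06 CPM, then 2.47 and 1.93 CPM, then 1.41 and 2.97 CPM. Leaving out any library of 5 or 9 dpf left between 11 and 13 members called lower.

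Few genes of the ribosomal protein and respiratory chain lists were called, and a larger share of the proteasome and glycolysis lists. Of 31 glycolysis genes, 4 fell (12.9%) and 2 rose (6.45%, against 10.5% of all genes), with 1 gradual in each direction. Of 45 proteasome genes, 4 fell (8.89%, against 4.33% of all genes), all of them gradual: psma6b, psma8 and psmb5 of the core particle and psme3 of a regulator. The list's median log2 fold change was -0.62 and 9 of the 45 had a fold change above 0. At an unadjusted p under 0.05, 29 were lower and 1 higher, and DESeq2 gave 21 lower with an adjusted p under 0.05 and no limit on the fold. psma6b had 78.2 and 78.9 CPM at 5 dpf, 57.3 and 51.9 CPM at 7 dpf and 30.6 and 37.3 CPM at 9 dpf (log2 fold change -1.21 ± 0.20, adjusted p = 0.00133), and the stages did not overlap. psma8 was the weakest of the calls, with a log2 fold change of -1.01, and it was not a DEG in DESeq2 or with RLE normalization. The number of proteasome genes that fell was 2 without replicate 2 of 5 dpf, 1 without replicate 1 of 9 dpf and 17 without replicate 2 of 9 dpf. Of 81 genes of the ribosomal protein list, only rpl7l1, which is related to a ribosomal protein and known for ribosome assembly, was called, although only 4 of the 81 had a fold change above 0, the median was -0.50, and 44 were lower at an unadjusted p under 0.05 (14 at an adjusted p under 0.05 in DESeq2). Of 69 respiratory chain genes, 1 was called, ndufab1b, with a median of -0.51 for the list. Summed ribosomal protein genes had 107760 and 109984 CPM at 5 dpf and 72853 and 91595 CPM at 9 dpf, with replicate 1 of 9 dpf again the lower library.

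The falling gradual genes with the smallest adjusted p had several other roles. hif1an encodes an oxygen-dependent hydroxylase that restrains the hypoxia-inducible factor, and it was at 39 and 43 CPM at 5 dpf, 24.7 and 27.2 CPM at 7 dpf and 17.1 and 16.1 CPM at 9 dpf. Its log2 fold change was -1.30 ± 0.14 (adjusted p = 0.000102). eef2k, the kinase that slows translation elongation, had 185 CPM in both libraries of 5 dpf, 148 and 142 CPM at 7 dpf and 79.9 and 77.9 CPM at 9 dpf. ddit4, a stress-induced inhibitor of the growth kinase complex mTORC1, had 185 and 167 CPM, then 88.8 and 88 CPM, then 43 and 50.3 CPM, and its steps of -0.99 and -0.92 made it 3.78-fold lower in all. tdg.1, a DNA glycosylase known for base excision and DNA demethylation, went from 101 and 109 CPM through 71.7 and 69.4 CPM to 40.7 and 46.9 CPM. In all 4 genes the libraries of 7 dpf lay together and below those of 5 dpf, and those of 9 dpf together and below those of 7 dpf. At 6 dpf, however, all 4 genes were below their level at 7 dpf, with 67.2 and 62.1 CPM for tdg.1.

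slc30a8, a zinc transporter known from the insulin granules of mammalian beta cells, had 49.6 and 47.9 CPM at 5 dpf, 28.2 and 32.8 CPM at 7 dpf and 20.7 and 17.8 CPM at 9 dpf. hpxb, a gene of the heme-binding plasma protein hemopexin, had 186 and 176 CPM, then 108 and 102 CPM, then 55.3 and 59.4 CPM. Its paralog hpxa moved the other way, from 239 and 249 CPM through 855 and 881 CPM to 2017 and 2470 CPM, by more than 2-fold in each step. The helicase gene dhx32b and the glycerophosphodiesterase-like gene gdpd3a completed the set, with log2 fold changes of -1.27 and -1.36. Of the genes of lipoprotein export, apoba, for the structural protein of secreted lipoproteins, was at 3497 and 3415 CPM at 5 dpf, 2067 and 2131 CPM at 7 dpf and 1807 and 1208 CPM at 9 dpf. It fell gradually by 1.20 ± 0.24 on the log2 scale (adjusted p = 0.00403), as did apoc2, an activator of lipoprotein lipase, by 1.37. Of the 17 tested genes of that list 4 fell (23.5%, against 4.33% of all genes). The 2 that rose were 11.8% of the list, near the 10.5% of all genes. Of these 2, apobec2a is a deaminase-like muscle protein whose symbol only begins like an apolipoprotein's.

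**Figure D3:**
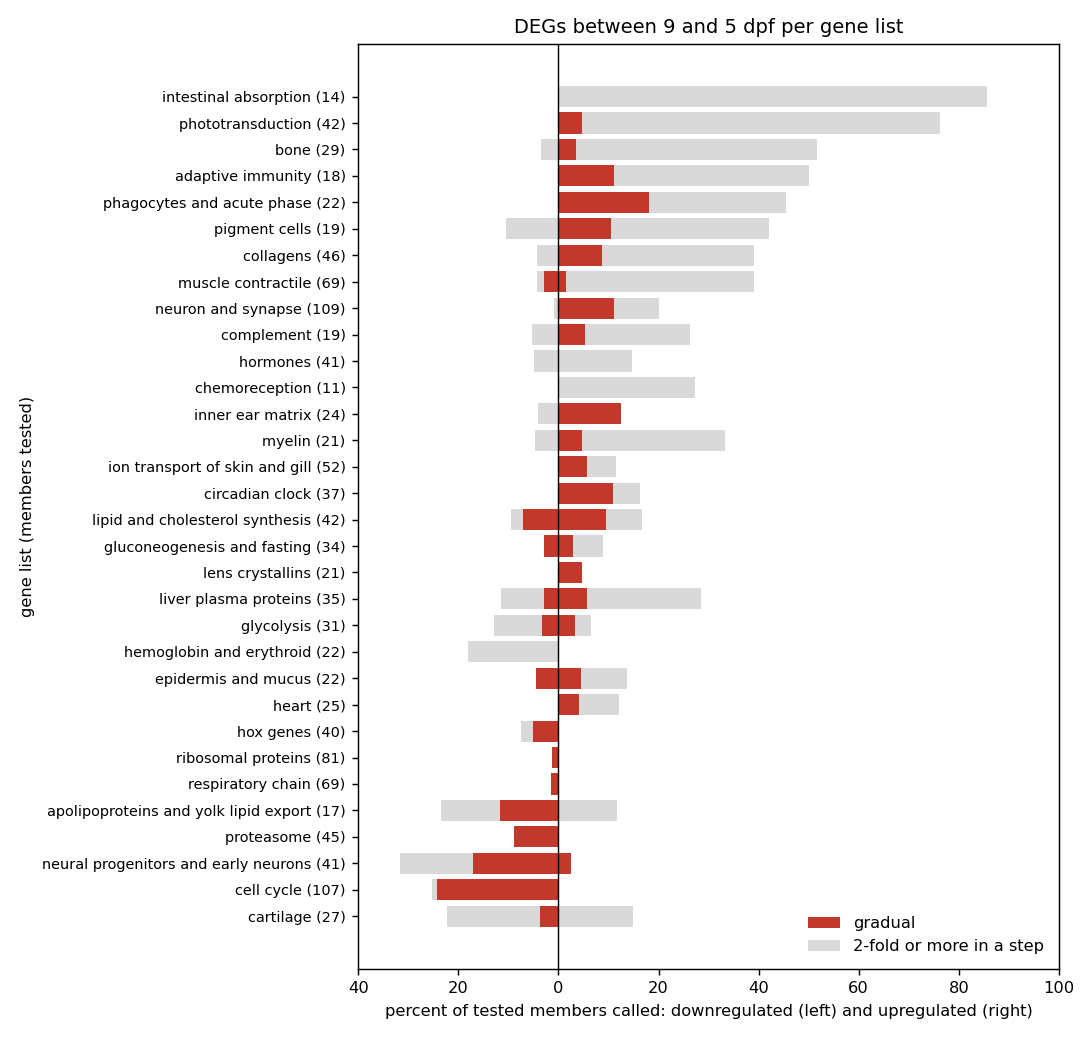
Percent of tested members called upregulated (right) or downregulated (left) between 9 and 5 dpf in each gene list with at least 10 members tested, ordered by median log2 fold change, with the gradual part in red. The cell cycle bar is red over 26 of its 27 genes, while intestinal absorption has 12 of 14 genes upregulated and none gradual.

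On the rising side, genes of neurons and synapses, the longest of the lists, held the most gradual members. Of 109 tested genes, 22 rose (20.2%, against 10.5% of all genes) and 1 fell, and 12 of the 22 were gradual. Of the 16 neuronal genes that rose by 1 to 1.5 on the log2 scale 10 were gradual (62.5%), where 69.6% of all upregulated DEGs of that size were. The median log2 fold change was 0.54, with 0.29 and 0.32 in the steps, and 95 of the 109 genes had a fold change above 0. Among the 12 were the voltage-gated potassium channel genes kcna1a, kcna1b, kcna4, kcnc1b and kcnc3b, the sodium channel gene scn8ab, and the GABA receptor gene gabrd. The vesicular glutamate transporter genes slc17a7a and slc17a7b, the complexin gene cplx2a and the neurofilament gene nefma were also among them. scn8ab was at 13.3 and 16.6 CPM at 5 dpf, 27 and 25.9 CPM at 7 dpf and 57.4 and 28.4 CPM at 9 dpf, a log2 fold change of 1.52 ± 0.36 (adjusted p = 0.00878), and replicate 2 of 9 dpf was close to the libraries of 7 dpf. nefla, another neurofilament gene, passed 2-fold in both steps, with 12.2 and 14.4 CPM at 7 dpf and 40.5 and 15.2 CPM at 9 dpf. Its second step therefore rested on replicate 1 of 9 dpf. The number of neuronal genes that rose was 8 and 6 without replicates 1 and 2 of 5 dpf, 6 without replicate 1 of 9 dpf and 26 without replicate 2 of 9 dpf.

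nfascb had the smallest adjusted p of the rising gradual genes named. It encodes neurofascin, an adhesion molecule that assembles the axon initial segment and the nodes of Ranvier. It was at 12.2 and 16 CPM at 5 dpf, 25.7 and 27.3 CPM at 7 dpf and 48.6 and 41.6 CPM at 9 dpf, with a log2 fold change of 1.67 ± 0.19 (adjusted p = 0.000106) and steps of 0.90 and 0.77. cldn19, a claudin of tight junctions that is known from myelinating Schwann cells in the mouse, had 17.6 and 26.9 CPM, then 36.6 and 38.9 CPM, then 73.6 and 70.3 CPM. In both genes the 3 stages did not overlap. The RNA of some other myelin genes rose far more steeply: mbpa, for myelin basic protein, had 6.99 and 6.05 CPM at 5 dpf, 50.4 and 41.3 CPM at 7 dpf and 184 and 240 CPM at 9 dpf. Of 21 myelin genes 7 rose (33.3%, against 10.5% of all genes) and 1 fell, and cldn19 was the 1 among them that was gradual. mpz, plp1b and cldnk rose by 4.62, 4.70 and 4.06 on the log2 scale.

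The rising gradual genes with the smallest adjusted p had several other roles. aebp1b, for a secreted collagen-binding protein, was at 24.8 and 24.9 CPM at 5 dpf, 47.8 and 49.8 CPM at 7 dpf and 111 and 70.7 CPM at 9 dpf, a log2 fold change of 1.87 ± 0.21 (adjusted p = 0.000115). adamts2a, the protease that trims procollagen, went from 20.1 and 22.5 CPM through 37.9 and 40.1 CPM to 53.7 and 50.3 CPM. ptprb, a receptor phosphatase of vascular endothelium, went from 26.8 and 27.5 CPM through 43.2 and 46.5 CPM to 77.5 and 59.7 CPM. mylka, the kinase that starts smooth muscle contraction, went from 28.4 and 27.4 CPM through 47.3 and 43.8 CPM to 61.7 and 62.1 CPM. The stages 5, 7 and 9 dpf were separate in all 4 genes. The libraries of 9 dpf were far apart only in aebp1b and ptprb. At 6 dpf aebp1b (92.1 and 77.2 CPM), ptprb (63.8 and 64.4 CPM) and mylka (53.3 and 50.2 CPM) were above their 7 dpf level. In adamts2a the libraries of 6 and 7 dpf overlapped.

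abca1a, the cholesterol exporter of cells, had 67.8 and 72.2 CPM at 5 dpf, 108 and 110 CPM at 7 dpf and 183 and 160 CPM at 9 dpf, with equal steps of 0.64 and 0.65. tgfbr3, a co-receptor for transforming growth factor beta, rose by 1.5 ± 0.18 on the log2 scale. sh3pxd2aa, a scaffold of cell invasion structures, rose by 1.35 ± 0.17, and dock9b, an activator of the small GTPase Cdc42, by 1.80 ± 0.23. The 6 dpf levels of tgfbr3 (34.2 and 33.7 CPM) and sh3pxd2aa were above their 7 dpf levels, and that of abca1a was near its 7 dpf level. That of dock9b lay between its levels of 5 and 7 dpf. Of 46 collagen genes, 18 rose (39.1%, against 10.5% of all genes) and 2 fell (4.35%). Of those that rose 4 were gradual, fewer for their number than the 34% of all upregulated DEGs: col5a1, col14a1a, col16a1 and col27a1a, with log2 fold changes from 1.25 to 1.64. The fibrillar collagen genes col5a2b and col11a1b passed 2-fold in both steps. Summed over the list, collagen genes had 25823 and 26149 CPM at 5 dpf and 58372 and 72162 CPM at 9 dpf.

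Smaller numbers of gradual genes rose in other groups. In the lymphocyte list, 9 of 18 genes rose (50%, against 10.5% of all genes), and rag1, which cuts antigen receptor genes, and bcl11bb, a T cell transcription factor gene, were gradual, while rag2 and lck passed 2-fold by 7 dpf. In the phagocyte list 10 of 22 rose (45.5%), with spi1b, ncf4, csf3r and coro1a gradual. That number was 2 and 1 without replicates 1 and 2 of 5 dpf, 6 without replicate 1 and 4 without replicate 2 of 9 dpf, and s100a10a, which was counted in it, is not particular to phagocytes. In the ion transport list 6 of 52 rose, which at 11.5% is near the 10.5% of all genes, among them slc4a4a, a sodium bicarbonate cotransporter, and trpv6, the epithelial calcium channel. slc4a4a had 38.3 and 34.1 CPM at 5 dpf, 48.6 and 54.2 CPM at 7 dpf and 90.9 and 75.1 CPM at 9 dpf, a log2 fold change of 1.20 ± 0.15 (adjusted p = 0.000273). kcnj12b, also among the 6, is an inward rectifier channel gene known from excitable cells rather than ionocytes. In the list of lipid and cholesterol synthesis 7 of 42 rose (16.7%, against 10.5% of all genes) and 4 fell (9.52%, against 4.33%). The median log2 fold change was 0.12. The gradual members were me1, hmgcra, dgat1a and ldlra, which rose, and scd, elovl7a and elovl7b, which fell. me1, for the malic enzyme that supplies NADPH, went from 7.89 and 7.39 CPM through 12.7 and 11.4 CPM to 19.7 and 20.2 CPM.

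Some lists held few gradual genes, which follows from the class only where changes pass 4-fold. Of 14 genes of intestinal absorption 12 rose (85.7%, against 10.5% of all genes) and none was gradual, and slc15a1b, the peptide transporter of the gut brush border, rose from 0.451 and 0.672 CPM through 10.5 and 11.9 CPM to 63 and 73.5 CPM. Of 42 genes of phototransduction 32 rose (76.2%) with a median of 2.35. The gradual ones, rdh8a and pde6a, were the 2 that rose by less than 1.5 on the log2 scale. arr3a, a cone arrestin, rose from 9.69 and 6.55 CPM to 53.1 and 48.6 CPM by 7 dpf and 69.9 and 96.1 CPM at 9 dpf. Of 69 genes of the contractile apparatus of muscle 27 rose (39.1%) and 3 fell (4.35%), with ldb3b gradually higher and myl10 and tnni1c gradually lower. The median log2 fold change of this list was 0.69. Of its 7 genes that rose by 1 to 1.5 on the log2 scale 1 was gradual (14.3%), where 69.6% of all upregulated DEGs of that size were. Both of the 2 that fell by that much were gradual. Of 29 bone genes 15 rose (51.7%) and phex was the gradual 1. The haemoglobin genes hbb and hbae fell by 2.29 and 2.39 on the log2 scale, all of it by 7 dpf.

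The summed levels of muscle and erythroid genes changed mostly by 7 dpf. Summed muscle genes had 43885 and 44982 CPM at 5 dpf, 133396 and 136933 CPM at 7 dpf and 109861 and 89121 CPM at 9 dpf, and summed haemoglobin and erythroid genes had 21747 and 22622 CPM at 5 dpf, 4980 and 4783 CPM at 7 dpf and 4825 and 6382 CPM at 9 dpf. CPM are relative, and the part of these shifts in changes of less than 4-fold was not tested. The pancreatic digestive enzyme genes, which mark the exocrine pancreas, summed to 21.2 and 24.7 CPM at 5 dpf and to 72.7 and 483 CPM at 9 dpf. prss1, a trypsinogen gene, had 8.6 CPM in replicate 1 and 66 CPM in replicate 2 of 9 dpf, and its call was lost without either library of 5 dpf and without replicate 2 of 9 dpf.

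The libraries of 6, 8 and 10 dpf were not part of the contrasts that chose the gradual genes. They did share the filter, the normalization and the estimates of spread behind the adjusted p, so their reading is not independent. Without the libraries of 10 dpf in the fit, 1401 genes were gradual instead of 1223. The libraries of 6, 8 and 10 dpf were more deeply sequenced, with 7944619 to 16097718 counts against 4349807 to 6755272 at 5, 7 and 9 dpf. Of the 728 upregulated gradual genes, 62 (8.52%) rose between 6 and 8 dpf with an adjusted p under 0.05 in edgeR's test, against 2.79% of all genes tested. None fell in edgeR or DESeq2, while 41 were lower at an unadjusted p under 0.05. Of the 495 downregulated gradual genes, 16 (3.23%) fell, against 1.54% of all genes, and none rose in edgeR or DESeq2, with 2 higher at an unadjusted p under 0.05. In direction alone, 404 of the 728 (55.5%) were higher at 8 than at 6 dpf, where 45.6% of all genes were, and 410 of the 495 (82.8%) were lower, where 54.4% of all genes were. The median log2 fold change from 6 to 8 dpf was 0.11 for the upregulated and -0.23 for the downregulated gradual genes. Over all genes tested, 881 were called between 6 and 8 dpf, and 2956 without the libraries of 10 dpf in the fit. Calls over all genes also became fewer when a library of 6 or 8 dpf was left out, so the shifts below are not particular to gradual genes. The 78 genes that moved on in either direction became 248 without the libraries of 10 dpf in the fit, and between 9 and 24 when a library of 6 or 8 dpf was left out (11 and 9 without replicates 1 and 2 of 6 dpf, 11 and 24 without those of 8 dpf).

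Over 6, 8 and 10 dpf the direction was shared by more of the gradual genes. The slope on the day was upward for 623 of the 728 upregulated gradual genes (85.6%, against 53.8% of all genes) and downward for 472 of the 493 downregulated ones that could be tested (95.7%, against 46.2%). A total of 101 (13.9%) rose with an adjusted p under 0.05, against 4.26% of all genes, and 60 (12.2%) fell, against 2.01%. In the opposite direction 1 upregulated and 2 downregulated genes were called. The libraries of 10 dpf differed by 2-fold or more in 2794 genes, and the 161 genes with a trend depended on single libraries. So did the 1259 genes with a trend among all genes tested, whose number moved the same way when each library was left out. There were 0 in edgeR without replicate 1 of 6 dpf and 0 without replicate 2, with 217 rising and 235 falling at an unadjusted p under 0.05 in each of these fits, and DESeq2 was not run there. There were 96 and 27 without replicates 1 and 2 of 8 dpf, 1 without replicate 1 of 10 dpf and 309 without replicate 2 of 10 dpf.

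Named genes showed both patterns. cldn19 rose from 29.4 and 25.2 CPM at 6 dpf to 66.5 and 61.7 CPM at 8 dpf (log2 fold change 1.23, adjusted p = 0.00347) and adamts2a from 43.9 and 37.8 CPM to 62.1 and 64.5 CPM (0.63, adjusted p = 0.0253). tdg.1 fell from 67.2 and 62.1 CPM at 6 dpf through 47.8 and 43.4 CPM at 8 dpf to 28.9 and 26.2 CPM at 10 dpf, a slope of -0.28 per day on the log2 scale (adjusted p = 0.0194). slc30a8 fell by 0.47 per day (adjusted p = 0.0157). These 4 genes therefore moved the same way between 6 and 8 dpf as between 5 and 9 dpf, but only cldn19 was called in both edgeR tests. adamts2a had a slope of 0.08 per day (adjusted p = 0.526), with 51.3 and 44.2 CPM at 10 dpf. Between 6 and 8 dpf, the adjusted p was 0.0606 for tdg.1 and 0.058 for slc30a8. All 26 gradual cell cycle genes and all 7 falling gradual neural progenitor genes were lower at 8 than at 6 dpf. Of all downregulated gradual genes 82.8% were, and of all genes 54.4%. Of the 107 cell cycle genes 6 fell with an adjusted p under 0.05 in edgeR, where 1.54% of all genes did. Of the 12 rising gradual neuronal genes 9 were higher at 8 than at 6 dpf, where 55.5% of all upregulated gradual genes and 45.6% of all genes were. None of the 109 neuronal genes was called between 6 and 8 dpf in edgeR (15 were higher at an unadjusted p under 0.05, and 1 was called in DESeq2). None of the 41 neural progenitor genes was called either in edgeR or in DESeq2, and 16 were lower at an unadjusted p under 0.05.

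For other genes no change was called between 6 and 8 dpf. eef2k had 77.2 and 71.9 CPM at 6 dpf, 85.5 and 78.2 CPM at 8 dpf and 59.1 and 64.1 CPM at 10 dpf, so that the libraries of 6 dpf were already at the level of 9 dpf and below that of 7 dpf. The log2 fold change from 6 to 8 dpf was 0.14 (adjusted p = 0.604). hif1an had 17.3 and 19.5 CPM at 6 dpf and 18.2 and 19.6 CPM at 8 dpf, and ddit4 43.6 and 55.1 CPM at 6 dpf and 73.4 and 58.5 CPM at 8 dpf. For these 3 genes the fall over 5, 7 and 9 dpf was not matched by values between those of 5 and 7 dpf at 6 dpf. abca1a and mylka had log2 fold changes of 0.05 and 0.42 from 6 to 8 dpf, with adjusted p of 0.896 and 0.0871, and in mylka and ddit4 the libraries of 6 and 8 dpf did not overlap.

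**Figure D4:**
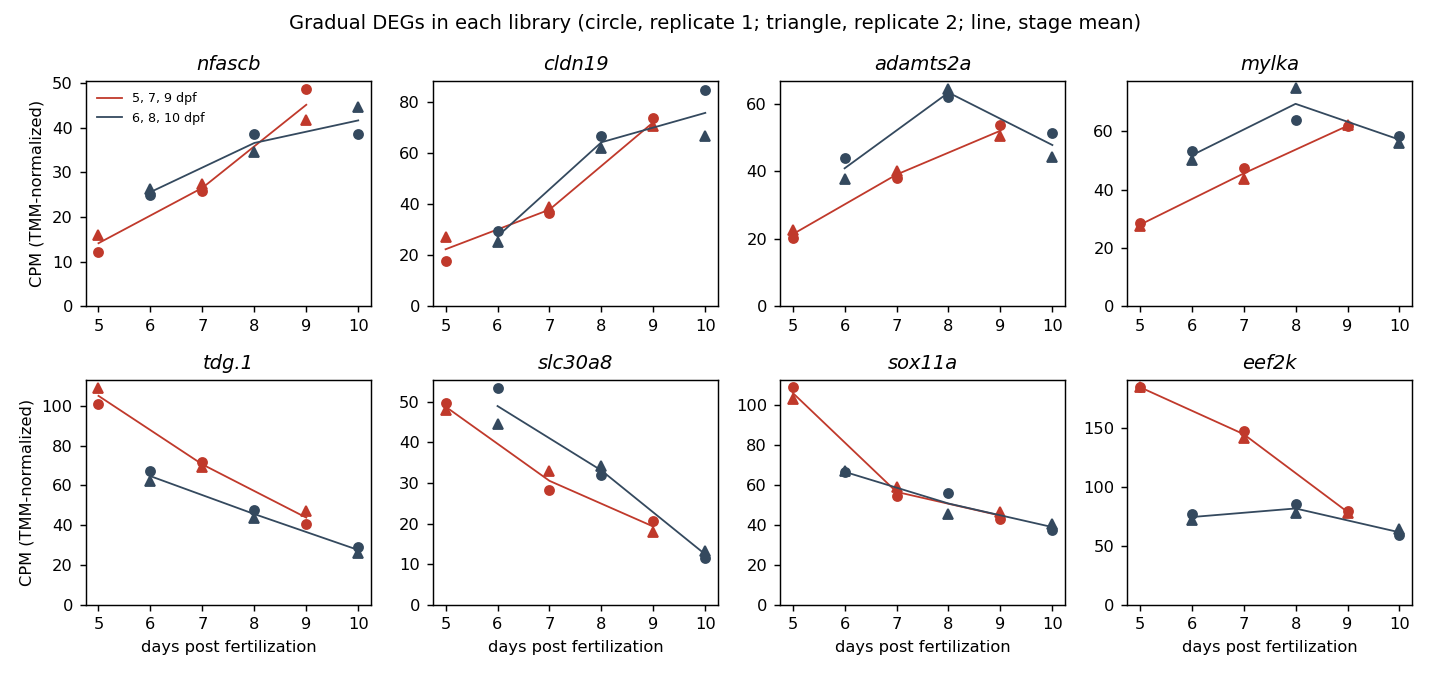
CPM in each library (points) and stage means (lines) by day for 4 gradual genes that rose and 4 that fell between 5 and 9 dpf, with 5, 7 and 9 dpf in red and 6, 8 and 10 dpf in blue. cldn19, tdg.1 and slc30a8 move the same way in both sets of days, while eef2k has 77.2 and 71.9 CPM at 6 dpf, below its 148 and 142 CPM at 7 dpf.

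Over all gradual genes, the level at 6 dpf lay between the levels of 5 and 9 dpf for 386 of the 728 upregulated genes (53%), at or above the 9 dpf level for 261 and at or below the 5 dpf level for 81. For the downregulated genes it lay between for 449 of 495 (90.7%). At 8 dpf the level lay between for 491 upregulated (67.4%) and 422 downregulated (85.3%) genes. At 10 dpf, 496 of the upregulated genes were at or above the 9 dpf level and 385 of the downregulated genes at or below it. How far the greater depth of the libraries of 6, 8 and 10 dpf bears on these positions was not tested.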

How the data were processed

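RNA of channel catfish from 7 stages between 2 and 10 dpf was sequenced in 14 libraries, 2 pools of fish for each stage. The authors trimmed reads with Trimmomatic 0.36, mapped them with STAR 2.7.0 and counted reads per gene with HTSeq, as named in the paper and the submitters' processing notes. What the authors deposited are raw counts per gene, not normalized. The build, annotation and strand setting are not given in the sources used here, so overlapping genes and paralogs that share reads are uncertain, and no coordinates or sequences are given. Exon lengths were not used, so levels are compared within a gene.

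The table gave 3 gene identifiers on more than a single line (7 lines in all), and their counts were added up, leaving 23231 genes. Of these, 21834 were matched to RefSeq (Coco_2.0), which gave symbols and gene spans with introns. All 14 libraries, with totals of 4349807 to 16097718 counts, were fitted in edgeR 4.0.16 (R 4.3.3) with TMM normalization, edgeR's low-count filter, a mean per stage and the quasi-likelihood test, with Benjamini-Hochberg adjustment over 20329 genes. Standard errors are approximate and were derived from the fold change and its F statistic. The slope on the day was fitted over the 6 libraries of 6, 8 and 10 dpf (20085 genes). The lowest level read as present was 3 counts, which covers counting error only. Nothing shows that the pools of a stage came from separate spawns, so p-values measure the spread between pools.

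The genes named are the 6 DEGs with the largest increase and the 6 with the largest decrease, the 10 gradual DEGs with the smallest adjusted p in each direction (all with at least 10 CPM at the higher stage, no overlap and a named product), up to 4 DEGs with the largest fold change in each of 34 gene lists (at least 5 CPM), and the DEGs nearest to the 2-fold limit of a step. Other list members are named as complete sets of the gradual members of a list, or were chosen after their values were seen. Lists were matched by symbol. A list member that is part of the counts is not reported here by name. The members and lists were chosen with earlier results of these data known, so the lists are described by counts and medians without a set test. Alternatives were DESeq2 1.42.0, RLE normalization, no filter or a minimum of 10 counts in the libraries of 5, 7 and 9 dpf, fits on 4 or 6 libraries, glmTreat, a replicate block, leaving out each library, and other limits of a gradual step. Fits without 10 dpf and list counts under the alternatives were added after seeing the data. The fits were tested on simulated data. Tables and plots used Python 3.11.15, numpy 2.4.6, pandas 2.3.3 and matplotlib 3.10.9.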

Additional observations from a re-analysis of the deposited data

How the results depend on the processing

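Fold changes between 9 and 5 dpf kept their direction for the 147 named DEGs under the alternatives run. Of these, 110 could be tested with a minimum of 10 counts. The kept direction says little, because these genes were chosen from the same libraries. In all of them the libraries of 5 and 9 dpf did not overlap, so the alternatives could hardly reverse a direction. Calls were lost for 1 to 4 of the named DEGs under DESeq2, RLE normalization and a minimum of 10 counts. The same held for the fits on 4 or 6 libraries and the replicate block. Calls were lost for 77 under glmTreat, and for 11 to 34 when a library of 5 or 9 dpf was left out. Against a log2 fold change of 1 (glmTreat), 639 DEGs were left, 507 of them higher and 132 lower. No gene of the cell cycle, neural progenitor or proteasome lists was among them, and 1 neuronal gene was. With at least 10 counts in every library of 5, 7 and 9 dpf, 550 genes were lower, from fewer genes tested. Leaving out single libraries gave 1677 to 3988 DEGs, 1096 to 2408 higher and 458 to 1580 lower, 456 to 1992 gradual genes, 9 to 24 gradual genes called between 6 and 8 dpf and 0 to 309 called by day. The gradual class held 112 genes with steps under 1.5-fold, a limit that only DEGs little above 2-fold can meet. It held 1950 if each step had to be at least 0.25 of the change. Without the 2 libraries of 10 dpf, an alternative chosen after seeing the data, 248 gradual genes were called between 6 and 8 dpf, and 2956 of all genes. DESeq2 called 384 by day, and 2711 of all genes. The cause of these differences was not tested. Replicate numbers were not taken to pair the libraries. Deviations of same-numbered libraries correlated at 0.0047 between 5 and 9 dpf. Pairs of stages were compared only among 5, 7 and 9 dpf and among 6, 8 and 10 dpf, and the highest value was 0.268, between 8 and 10 dpf. The replicate block gave 2885 DEGs, 1161 gradual genes, 64 called between 6 and 8 dpf and 94 by day against 161, and only kcna7 and s100a10a of the named genes lost their call. The 2-fold limit is part of the call, so genes close to it can pass or fail on small differences. How far the 2 pools per stage and the depth of at most 6755272 counts per library at 5 and 9 dpf limited the calls was not tested.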

Other observations

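Single members of other gene lists also changed gradually. Of 37 circadian clock genes 6 rose (16.2%, against 10.5% of all genes) and none was a downregulated DEG in edgeR (6 were lower at an unadjusted p under 0.05 and 1 at an adjusted p under 0.05 in DESeq2), and clocka, per2, per3 and rorca were gradual. per3, a core repressor of the clock, had 24.3 and 26.7 CPM at 5 dpf, 39.2 and 41.2 CPM at 7 dpf and 69.4 and 44.3 CPM at 9 dpf (log2 fold change 1.16, edgeR adjusted p = 0.0302). None of the 4 was higher at 8 than at 6 dpf, and the number of clock genes that rose was 5 and 2 without replicates 1 and 2 of 5 dpf, 1 without replicate 1 of 9 dpf and 8 without replicate 2 of 9 dpf. Of 24 inner ear genes 3 rose (12.5%, near the 10.5% of all genes) and 1 fell (4.17%, near the 4.33% of all genes). otofa, needed for transmitter release from hair cells, tectb, known from the tectorial membrane of mammals, and ush1c, known from the hair bundle, rose gradually. The tissue in which they rose is not known from whole larvae. The calls of these 3 genes were lost without replicate 2 of 5 dpf. stm, for an otolith matrix protein, fell by 2.21 on the log2 scale, most of it by 7 dpf. Of 19 pigment cell genes 8 rose (42.1%) and 2 fell, with tyr, for the melanin enzyme tyrosinase, and kita, a receptor of melanocyte precursors, rising gradually.

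Median gene lengths were compared without a test. The median gene span with introns was 27906 bases for the 711 upregulated gradual genes with a span, 6313 bases for the 472 downregulated ones and 12243 bases for all genes tested. Among DEGs with an absolute log2 fold change from 1 to 1.5 the medians were 26718 and 6550 bases. The other downregulated classes had medians of 6627, 7482 and 3973 bases (2-fold passed in the first, the second and both steps). The other upregulated classes had 17668, 9197 and 7928 bases in the same order. The downregulated gradual genes had a neighbour on the chromosome that was also one in 8.47% of cases, where 4.71% of all genes had such a neighbour, and the upregulated ones in 7.45%, where 7.07% had. At 2 dpf, before the days compared, 329 of the 495 downregulated gradual genes were at or above their 5 dpf level and 340 of the 728 upregulated ones at or below it. What lies behind these values was not tested.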
